A study of Homo sapiens with 4 samples.

Results

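The trefoil factor genes TFF1, TFF2 and TFF3 were followed on expression arrays of AGS, a cell line from a human gastric adenocarcinoma, with and without knockout of the arginine methyltransferase PRMT6. The 3 genes were chosen with earlier results of these data known. Their probe sets were taken by gene symbol alone: every probe set annotated to exactly 1 gene with one of these symbols was used. This gave 3 probe sets for 3 genes, out of 19775 genes and 54613 probe sets measured. The control group was AGS with wild-type PRMT6 (n = 2 arrays) and the other group was PRMT6-knockout AGS (n = 2 arrays), both grown in RPMI1640 with fetal bovine serum. Knockout cells carried a lentiviral Cas9 vector (lentiCRISPR v2), were selected with puromycin and came from clones isolated by limiting dilution. The labels do not say which clone lies behind each knockout array, nor whether control cells carried a vector or were cloned, so clone and knockout cannot be told apart. Nothing in the labels says that the arrays of a group came from separate cultures. The p-values therefore measure only the spread between these arrays, which may be technical.

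Trefoil factors are small secreted peptides built from a compact, looped domain held together by disulfide bonds, and they are released together with mucins onto the surface of the gut. In the stomach TFF1 is made by surface (pit) cells along with the mucin MUC5AC, and TFF2, which carries a pair of trefoil domains, is made by mucous neck cells along with MUC6. TFF3 belongs to the goblet cells of the intestine, which make MUC2. TFF1 is also known as an oestrogen-induced gene of breast cancer cells, and its loss is a known feature of many gastric cancers.

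The perturbation was set by a single guide of 20 bases against PRMT6, shown 5′ to 3′ because it defines the knockout group.
PRMT6 guide: gacggtactggacgtgggcg

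Array medians lay between 5.01 and 5.02 on the log2 scale of the deposited intensities. PRMT6, read by 1 probe set, stood at 8.03 and 8.11 in control cells and at 7.79 and 7.63 in knockout cells, a fall of 0.36 log2 units (SE 0.09, limma adjusted p = 0.043). Leaving out any 1 of the 4 arrays ended that call (adjusted p 0.10 to 0.23). A Cas9 edit need not lower the level of a transcript, so these values do not test the edit. The epithelial label was borne out by 9 markers of simple epithelium, whose mean intensity was 10.8 to 10.9 on each array. Of these 9 markers 66.7% were called, beside 24.0% of all genes. ELF3 (1.05), KRT19 (0.61) and KRT8 (0.49) rose, while ESRP1 (-1.15), CLDN7 (-0.65) and CLDN4 (-0.46) fell. Of these 6 calls only that of ESRP1 held without knockout 1 and without knockout 2. EPCAM stood at 12.4 to 12.6 and KRT18 at 13.2 to 13.3. The 6 endothelial markers averaged 4.25 and 4.43 in control and 4.34 and 4.43 in knockout cells, with 0 called. The 7 leukocyte markers averaged 5.46 and 5.56 in control and 5.41 and 5.21 in knockout cells, also with 0 called. PTPRC, the pan-leukocyte phosphatase, stood at 2.63 to 3.42, and LYZ, which gastric gland cells also express, was the brightest of them. Of 9 fibroblast markers 4 rose and 1 fell, 55.6% called beside 24.0% of all genes. Their mean went from 4.89 and 5.01 to 5.25 and 5.34. The risers were COL1A1 (1.56), LUM (1.37), COL3A1 (1.02) and FAP (0.36), and PDGFRA fell by 0.86. These values depend on the probe set: the gene-specific ones gave 0.07 for LUM and 0.18 for COL3A1, neither of them called. COL1A1 and FAP had no gene-specific probe set and were not in that fit. The mean of probe sets gave 0.72 for COL1A1, which kept its call, and -0.20 for PDGFRA (adjusted p = 0.24). Under reference gene scaling FAP differed by 0.06 (adjusted p = 0.56). Of these, COL1A1 kept its call with each array left out, while the highest adjusted p was 0.056 for LUM, 0.13 for COL3A1, 0.19 for FAP and 0.061 for PDGFRA. The lowest value of any probe set was 1.64 to 1.71 on these arrays, so an absent transcript would not read 0. Whether the dim markers were above background was not tested, nor was the part of fibroblast markers in the results below.

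TFF1 was far lower in the knockout cells than in the control cells. Its log2 intensity was 9.79 and 9.73 on the control arrays and 6.15 and 6.63 on the knockout arrays. Both knockout arrays lay below both control arrays, with 3.11 log2 units between the lowest control and the highest knockout value. The difference was -3.37 log2 units (SE 0.16, with a 95% confidence interval of -3.79 to -2.96), a 10.4-fold fall, and its limma adjusted p over all 19775 genes was 0.00054. In bulk RNA, fewer cells making TFF1 and less TFF1 RNA per cell cannot be told apart. The same difference, as a ratio of geometric means, put the knockout level at 9.65% of the control level. Across the series 11.5% of genes were called lower, 12.4% were called higher and 24.0% were called in either direction. A fit of only the 9887 genes brighter than the median called a larger share of them, 2998 higher and 2569 lower. That fit had its own variance estimate and adjustment, so it does not give the share of bright or dim genes called in the main fit. The 24.0% may be a low yardstick for bright gene lists and a high one for dim lists, but this was not tested. Arrays of the groups did not overlap in 58.2% of genes, and in 29.1% the knockout arrays were the lower ones. Ordered by the size of the fall, TFF1 was number 13 of 19775 genes, and 20 genes changed by more in either direction. Ordered by p-value, it was number 117, since its knockout arrays differed from each other by 0.47 while its control arrays differed by 0.06.

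The fall of TFF1 left a probe set that was still brighter than most. Its intensity exceeded 94.5% and 94.4% of all probe sets on the control arrays and 65.9% and 71.2% of them on the knockout arrays. Brightness differs between probe sets for reasons other than transcript number, and the table has no detection calls, so whether the knockout level exceeded background was not tested.

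TFF2 and TFF3 showed no such difference. TFF2 read 4.89 and 4.78 on the control arrays and 4.73 and 4.83 on the knockout arrays, so the groups overlapped. Its difference was -0.05 log2 units (SE 0.09, 95% confidence interval -0.27 to 0.17, limma adjusted p = 0.74). TFF3 read 5.54 and 5.26 in control cells and 5.54 and 5.42 in knockout cells, again with overlap. The difference of TFF3 was 0.08 (SE 0.12, 95% confidence interval -0.23 to 0.38, limma adjusted p = 0.73). These p-values do not show that the levels were equal. A fall as large as that of TFF1 lay outside both intervals, but these dim probe sets could hardly have shown one. It would have taken TFF2 below, and TFF3 close to, the lowest value of any probe set (1.64 to 1.71 on the 4 arrays). The TFF2 probe set was brighter than 45.2% to 48.0% of probe sets on the 4 arrays and the TFF3 probe set brighter than 53.9% to 58.0%. Whether either transcript was above background in AGS cells was not tested, and RMA compresses differences of dim probe sets.

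**Figure D1:**
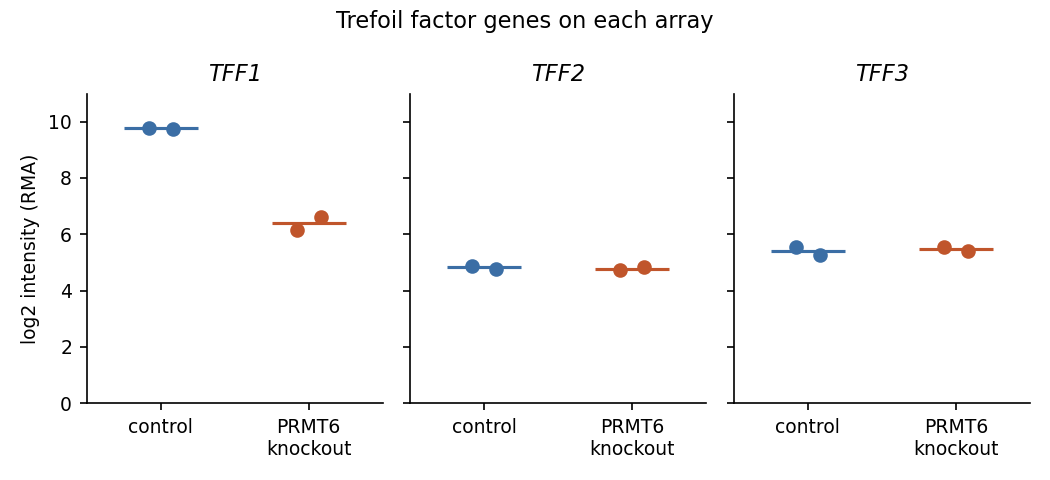
Log2 intensity (vertical axis) of TFF1, TFF2 and TFF3 on each of the 4 arrays; points are single arrays and horizontal lines are group means (n = 2 control in blue, n = 2 PRMT6 knockout in orange). TFF1 drops from 9.79 and 9.73 to 6.15 and 6.63, while the points of TFF2 and of TFF3 overlap between groups.

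The 3 genes were compared with each other by taking, on each array, the difference between 2 of them. The change of TFF1 was more negative than that of TFF2 by 3.32 log2 units and than that of TFF3 by 3.45, and in both cases the 2 knockout arrays lay apart from the 2 control arrays. The exact two-sided permutation p was 0.333 for each, the smallest that 2 arrays against 2 allow (0.5 after Benjamini-Hochberg adjustment over the 3 pairs). TFF2 and TFF3 differed in change by -0.13 (exact permutation p = 0.667, adjusted 0.667). The 95% interval of TFF1 from limma did not overlap that of TFF2 or TFF3. Since TFF2 and TFF3 were too dim to show a fall of that size, this does not tell apart how the 3 genes responded.

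The TFF1 difference ranged from -3.67 to -3.14 over 12 alternatives. TFF1 has 1 probe set, so only reference gene scaling and leaving out an array could change that difference. The other alternatives could change only its error and p-value. In the fits of all 4 arrays its limma adjusted p-values were 4.4e-06 to 0.0019. TFF2 turned on the scaling. After each array was shifted so that 11 reference genes had the same mean, TFF2 changed by -0.35 and passed the test (limma adjusted p = 0.023), and TFF3 changed by -0.22 (adjusted p = 0.14). With that scaling the median gene stood at -0.31 instead of -0.01, so TFF2 lay close to the median gene under both scalings. On the deposited scale 2459 genes rose and 2281 fell, and with reference gene scaling 1112 rose and 9647 fell. The reference genes were themselves unequal: 6 of 11 (54.5%) rose on the deposited scale, beside 12.4% of all genes. The list median was 0.33, and the rises were led by the transferrin receptor TFRC (0.80), the glycolytic enzyme PGK1 (0.49), HPRT1 (0.44) and PPIA (0.37). All 4 calls ended without knockout 1 and without knockout 2, and those of PGK1, HPRT1 and PPIA also without either control; the highest adjusted p-values were 0.060, 0.13, 0.11 and 0.16.

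**Figure D2:**
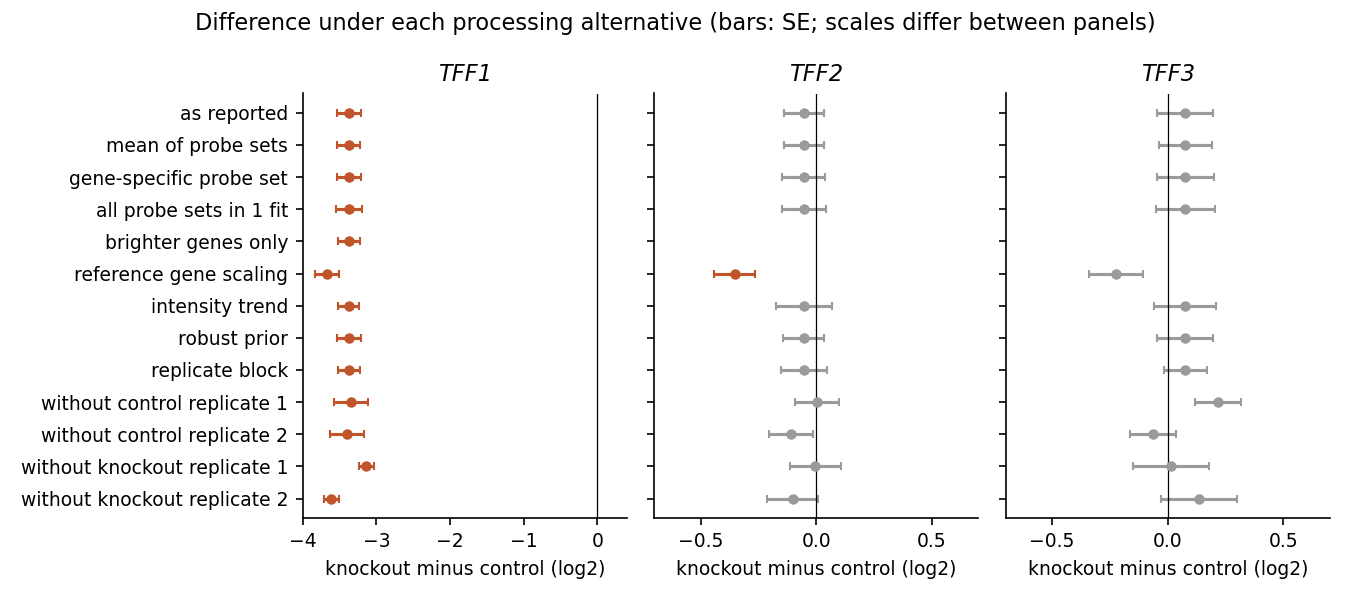
Knockout minus control difference (horizontal axis, log2) of TFF1, TFF2 and TFF3 under the reported processing and each alternative (vertical axis); bars are standard errors, orange marks an adjusted p below 0.05 and grey one above, and the scales differ between panels. TFF1 stays between -3.67 and -3.14, and TFF2 passes the test under reference gene scaling alone; TFF2 and TFF3 are not among the brighter genes.

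The trefoil genes form a cluster on chromosome 21, in the order TFF3, TFF2 and TFF1 in RefSeq (assembly GRCh38.p14), with 1 other RefSeq gene and 0 other measured genes between them. The measured genes nearest to the cluster on each side were not called on the deposited scale. ABCG1, UMODL1-AS1 and UBASH3A averaged only 3.71, 3.61 and 3.54 in control cells. The lowest value of any probe set was 1.64 to 1.71 on these arrays, so those genes could not have shown a fall as large as that of TFF1. TMPRSS3, the serine protease gene next to TFF1, read 5.50 and 5.43 in control and 5.54 and 5.51 in knockout cells (0.06, adjusted p = 0.64), although it was -0.24 and just past the test under reference gene scaling (adjusted p = 0.050 after rounding). UBASH3A, beyond TMPRSS3, differed by -0.19 (adjusted p = 0.60). On the other side the sterol transporter gene ABCG1, next to TFF3, differed by -0.13 (adjusted p = 0.69) and UMODL1-AS1 by -0.10 (adjusted p = 0.63; under reference gene scaling -0.40, adjusted p = 0.033).

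Of the 24 measured neighbours, 12 on each side, 2 rose and 2 fell, with a median of -0.03 beside -0.01 for all genes. The 4 called genes make up 16.7% of the neighbours, beside 24.0% of all genes. ZBTB21, a zinc finger gene and the fifth measured gene beyond TFF3, fell by 1.80 (SE 0.08, limma adjusted p = 0.00051), from 9.66 and 9.66 to 7.79 and 7.92. C2CD2, beside it, fell by 0.57 (adjusted p = 0.0074), WDR4, a subunit of a tRNA methyltransferase, rose by 0.40 (adjusted p = 0.044), and LINC00479 rose by 0.52 (adjusted p = 0.045). ZBTB21 kept its call in every fit with an array left out. C2CD2 lost it without either knockout array (highest adjusted p 0.086), and WDR4 and LINC00479 lost theirs without any single array (highest 0.21 for both) and under reference gene scaling, where their differences were 0.10 and 0.22. Under reference gene scaling 0 neighbours were called higher and 12 lower.

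**Figure D3:**
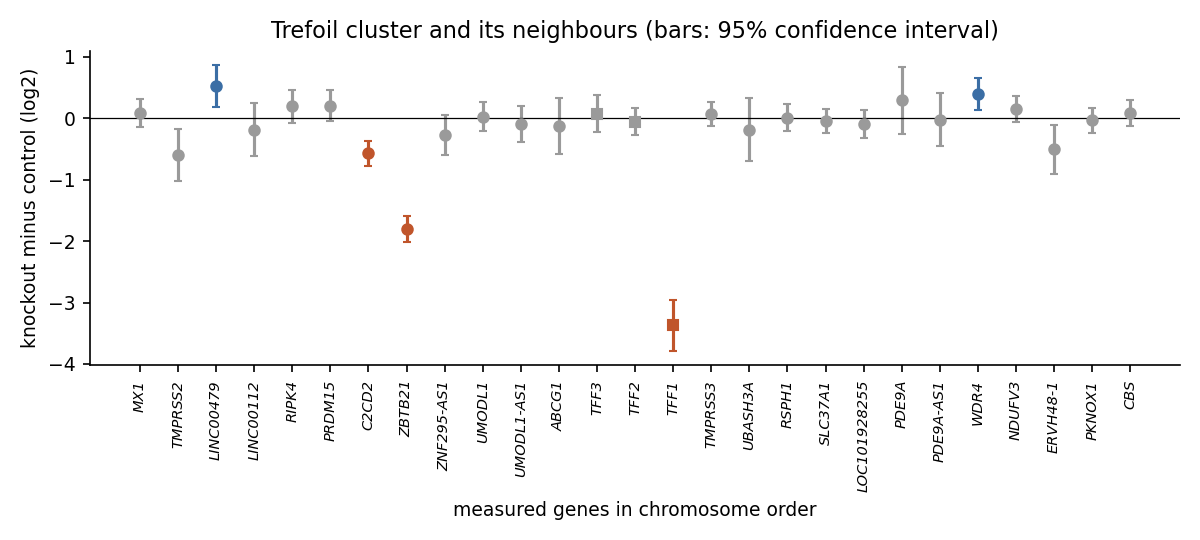
Knockout minus control difference (vertical axis, log2) of the trefoil genes (squares) and the 12 measured genes on each side of them (circles), placed in chromosome order (horizontal axis, not to scale); bars are 95% confidence intervals, orange marks a called fall, blue a called rise and grey no call. TFF1 lies at -3.37 and its nearest measured neighbours TFF2 and TMPRSS3 at -0.05 and 0.06.

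Mucins are the glycoproteins with which trefoil peptides are secreted. Of 6 secreted mucins 0 were called, beside 24.0% of all genes, with a median of 0.00 (-0.30 under reference gene scaling, where 1 fell). As for TFF2 and TFF3, whether their transcripts were above background was not tested, and a probe set at background could not show a fall. MUC5AC, the gel-forming mucin of gastric surface cells, read 5.44 and 5.75 in control and 5.56 and 5.76 in knockout cells (0.07, adjusted p = 0.79), and none of its 4 probe sets was called. MUC6, the mucin of neck and gland cells, differed by 0.05 (adjusted p = 0.79) and MUC2, the goblet cell mucin, by 0.00 (adjusted p above 0.99). Of 9 membrane mucins 1 was called, as a rise, 11.1% beside 24.0% of all genes. It was MUC13, which went from 7.80 and 7.60 to 8.08 and 8.16 (0.42, SE 0.10, adjusted p = 0.038). The median of the 9 membrane mucins was -0.10 (-0.40 under reference gene scaling). The MUC13 call ended without any 1 array (highest adjusted p 0.23), with the replicate block (0.064) and under reference gene scaling (difference 0.12, adjusted p = 0.33).

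Of 10 measured binding partners and reported receptors of trefoil peptides EGFR alone was called, as a fall, 10.0% beside 24.0% of all genes. The list median was -0.04 (-0.34 under reference gene scaling, where 6 fell). The list averaged 4.74 and 4.82 in control cells, below the array medians, and dim probe sets can hardly show a fall. GKN1 and GKN2 encode gastrokines, and GKN2 forms a disulfide-linked pair with TFF1. GKN2 differed by 0.17 (adjusted p = 0.35) and GKN1 by -0.04 (adjusted p = 0.77), with levels of 3.42 to 3.84 on all arrays, below the array medians. FCGBP, a mucus protein that binds TFF3, differed by -0.15 (adjusted p = 0.34). CXCR4, a chemokine receptor reported to respond to TFF2, differed by 0.00 (95% confidence interval -0.19 to 0.19). Under reference gene scaling GKN1 (-0.34), FCGBP (-0.45) and CXCR4 (-0.30) passed the test, again close to the median gene. The receptor tyrosine kinase EGFR fell by 1.00 (SE 0.13, adjusted p = 0.0067), from 9.22 and 8.86 to 8.04 and 8.05. Of its 9 probe sets 4 were called lower in the fit of all probe sets, the mean of the 9 gave -0.52, and the call ended without either knockout array (highest adjusted p 0.095).

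Of 16 genes of the surface pit cells that make TFF1 in the stomach, TFF1 left out, 3 fell and 2 rose, 31.2% in all beside 24.0% of all genes, with a median of -0.01 (-0.31 under reference gene scaling, where 7 fell and 1 rose). CAPN8, a stomach calpain, fell by 1.75 (SE 0.25, adjusted p = 0.0076), from 7.01 and 6.38 to 5.16 and 4.72. The aspartic protease CTSE fell by 0.96 (adjusted p = 0.0020) and CAPS fell by 0.42 (adjusted p = 0.029), although 0 of its 4 probe sets were called in the fit of all probe sets and their mean gave -0.13 (adjusted p = 0.39). ANXA10, an annexin of gastric epithelium, rose by 1.53 (SE 0.17, adjusted p = 0.0039) and the fucosyltransferase FUT2 rose by 0.44 (adjusted p = 0.023). Without knockout 1 there were 1 fall and 0 rises, and without knockout 2 there were 0 of each. Highest adjusted p-values with an array left out were 0.098 for CAPN8, 0.053 for CTSE, 0.18 for CAPS, 0.070 for ANXA10 and 0.14 for FUT2, which was also lost under reference gene scaling (adjusted p = 0.23).

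Of 15 genes of the gastric neck and gland base 2 fell and 1 rose, 20.0% in all beside 24.0% of all genes. The list median was -0.06 (-0.36 under reference gene scaling, where 9 fell and 0 rose). The list also holds genes of acid-secreting and hormone cells, so it does not describe neck and base cells alone. It averaged 5.70 and 5.79 in control cells, below the median gene level of 5.97, and its dim probe sets can hardly show a fall. BHLHA15, which encodes the secretory cell factor MIST1, fell by 4.34 (SE 0.10, adjusted p = 0.00012), from 9.37 and 9.19 to 4.90 and 4.97, a larger fall than that of TFF1. The pepsinogen gene PGC fell by 0.79 (adjusted p = 0.0033) and CD44 rose by 0.50 (adjusted p = 0.014). LYZ, encoding lysozyme, read 12.8 and 12.9 in control and 12.4 and 11.3 in knockout cells (95% confidence interval of the difference -1.85 to -0.15, adjusted p = 0.096). BHLHA15 kept its call with each array left out, PGC lost it without either knockout array (highest 0.061), and CD44 lost it without control 2 or either knockout array (highest 0.13) and under reference gene scaling (adjusted p = 0.096).

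Among 21 genes of intestinal goblet and absorptive cells, where TFF3 is normally made, 6 rose and 1 fell, 33.3% in all beside 24.0% of all genes, with a median of 0.00 (-0.30 under reference gene scaling, where 3 rose and 8 fell). REG4, a secreted lectin, rose by 1.39 (SE 0.14, adjusted p = 0.0028), from 9.93 and 9.63 to 11.3 and 11.1. The intestinal transcription factor CDX2 rose by 1.00 (adjusted p = 0.0028) and villin, VIL1, rose by 0.97 (adjusted p = 0.0023). SPINK4, FABP1 and CDH17 rose by 0.52, 0.52 and 0.32. LGALS4, a galectin of the gut, fell by 1.39 (SE 0.09, adjusted p = 0.0011). Without knockout 1 or without knockout 2 there were 0 rises, and without either control there were 4, while LGALS4 kept its call. Under reference gene scaling the rises of SPINK4, FABP1 and CDH17 were lost.

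Transcription factors reported at trefoil promoters went both ways. Of 22 measured factors 7 rose and 4 fell, 50.0% in all beside 24.0% of all genes. The list median was 0.02 (-0.28 under reference gene scaling, where 3 rose and 10 fell). These factors averaged 7.47 on each control array, above the median gene level of 5.97. CEBPB, a bZIP factor of the stress and acute phase response, fell by 2.17 (SE 0.13, adjusted p = 0.00083), from 12.6 and 12.7 to 10.3 and 10.6. FOXA2, a forkhead factor of endodermal epithelium, fell by 1.12 (SE 0.09, adjusted p = 0.0018), from 7.98 and 8.09 to 6.97 and 6.85, and KLF4, a factor of differentiating epithelium, fell by 1.02 (adjusted p = 0.0017). FOXA1, the related forkhead factor, differed by 0.01 (adjusted p = 0.97). In the fit of all probe sets, FOXA2 had 2 of 3 called lower (-1.22 to -0.13), KLF4 2 of 2 and CEBPB 1 of 1. The rises were those of CDX2 (1.00), MYB (0.62), GATA4 (0.60), SOX2 (0.58), USF1 (0.50), STAT3 (0.45) and GATA6. In that fit CDX2 had 2 of 2 called higher, GATA4 3 of 5 and USF1 1 of 1. MYB had 1 of 2 (-0.02 to 0.62), SOX2 1 of 4 (-0.03 to 0.58), STAT3 1 of 4 and GATA6 0 of 2. The endodermal factor GATA6 rose by 0.38 (adjusted p = 0.022), a call that ended without any 1 array (highest adjusted p 0.14) and under reference gene scaling (adjusted p = 0.38).

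ESR1, the oestrogen receptor through which TFF1 is induced in breast cells, fell by 0.56 by its brightest probe set (SE 0.08, adjusted p = 0.0080), from 6.02 and 6.11 to 5.54 and 5.47. That reading rested on 1 of 9 probe sets. The others were not called, the 9 ranged from -0.56 to 0.27, and the brightest gene-specific one gave -0.23 (adjusted p = 0.31). With an array left out, 4 factors fell without control 1, 3 without control 2 and 2 without either knockout array, while 4, 3, 0 and 0 rose. The calls of FOXA2 without knockout 2 and of KLF4 without knockout 1 were then missed narrowly (adjusted p = 0.051 and 0.050), ESR1 was lost without control 2 or either knockout array (highest 0.095), and CEBPB was kept.

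Of 21 other oestrogen receptor targets 5 fell and 3 rose, 38.1% in all beside 24.0% of all genes, with a median of -0.13 (-0.43 under reference gene scaling, where 13 fell and 0 rose). The falls were those of XBP1 (-1.24), SIAH2 (-0.93), EGR3 (-0.87), SLC7A2 (-0.80) and NRIP1 (-0.53), and the rises those of MYB (0.62), KRT13 (0.48) and IGFBP4 (0.40). XBP1 kept its call with each array left out. All the others lost theirs without knockout 1 and without knockout 2 (highest adjusted p from 0.062 for SLC7A2 to 0.19 for EGR3), and the 3 rises were also lost without either control and under reference gene scaling.

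In the list of endoplasmic reticulum genes used by mucous cells, most members fell while AGR2 rose. Of 17 measured genes 13 fell and 1 rose, 82.4% called beside 24.0% of all genes. The list median was -0.58 (-0.88 under reference gene scaling, where 16 fell). This is a bright list, with means of 9.95 and 9.96 in control cells beside a median gene level of 5.97. Whether the 24.0% is a low yardstick for it was not tested. Most of the falling genes, such as the chaperone HSPA5 (-1.02) and the disulfide isomerase P4HB (-0.62), serve protein folding in secretory cells in general. The 3 members not called were ERN2 (0.00), AGR3 (-0.04, at 2.12 to 2.20 on all arrays) and CREB3L4 (-0.06), of which ERN2 and AGR3 are known from mucus-secreting epithelium. The list shares BHLHA15 with the gland base list and XBP1 with the oestrogen list. ERN1, the stress sensor IRE1, fell by 2.64 (SE 0.09, adjusted p = 0.00027), from 8.37 and 8.41 to 5.66 and 5.83. The disulfide isomerase PDIA4 fell by 1.35 (adjusted p = 0.0011) and XBP1, the factor that IRE1 activates, fell by 1.24 (adjusted p = 0.0010). AGR2, a disulfide isomerase of mucous cells, rose by 3.76 (SE 0.09, adjusted p = 0.00019), from 7.38 and 7.40 to 11.2 and 11.1, the opposite direction to TFF1. The number of falls was 10 without control 1, 9 without control 2, 6 without knockout 1 and 5 without knockout 2, and BHLHA15, ERN1, PDIA4, XBP1 and AGR2 kept their calls in each. The mean of all probe sets gave smaller falls of ERN1 (-1.18) and XBP1 (-0.60). The other probe set of AGR2 rose by 1.38, and both were called in the fit of all probe sets. A further probe set of HSPA5 fell by more than its brightest one (-2.55).

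**Figure D4:**
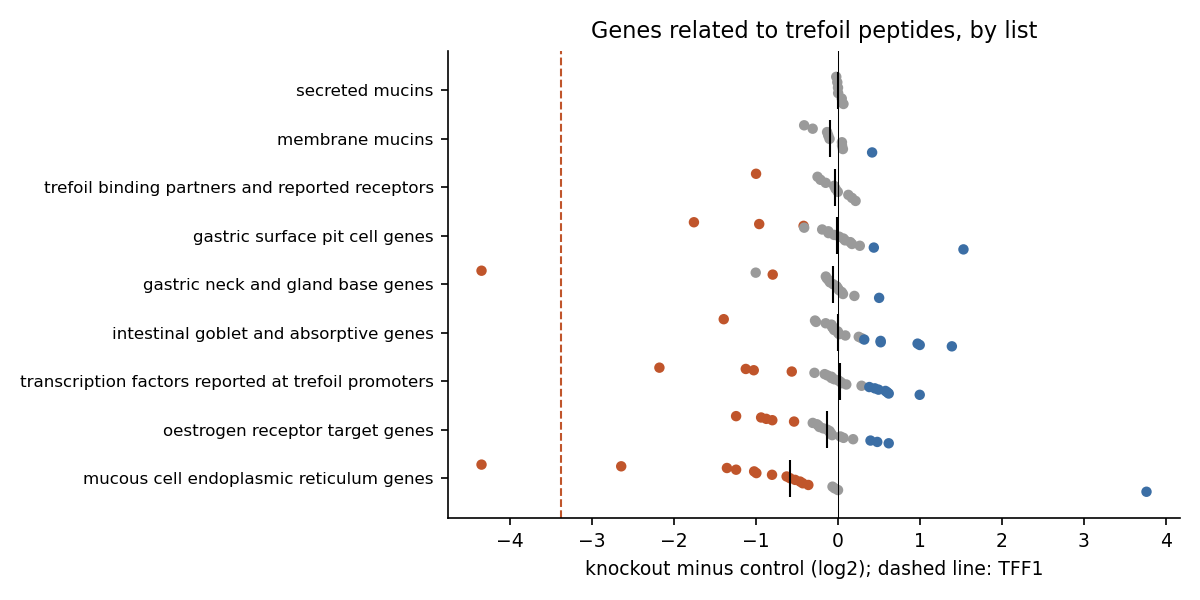
Knockout minus control difference (horizontal axis, log2) of each measured gene in 9 lists of genes related to trefoil peptides (vertical axis, trefoil genes left out); orange marks a called fall, blue a called rise, grey no call, short vertical lines list medians, and the dashed line the -3.37 of TFF1. Secreted mucins cluster at 0 on the deposited scale, whereas 13 of 17 genes of the mucous cell endoplasmic reticulum list lie to the left as called falls and AGR2 lies at 3.76.

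The genes with the pattern most like that of TFF1 were found by the root mean square difference over the 4 arrays, after each gene's own mean was subtracted. Since TFF1 falls between the groups, these genes do so by construction, and their falls are a description. The nearest was NUPR1, a small stress-induced nuclear protein, at 9.69 and 9.66 in control and 6.31 and 6.52 in knockout cells, with a root mean square difference of 0.11 log2 units from TFF1. It was followed by the endoplasmic reticulum co-chaperone DNAJB9 (0.16), the zinc finger protein ZFAND2A (0.19), the collagenase MMP1 (0.20) and the apolipoprotein APOA2 (0.24). Like TFF1, NUPR1, DNAJB9 and ZFAND2A were lower on knockout 1 than on knockout 2 (by 0.47 for TFF1), whereas MMP1 and APOA2 were slightly higher there. TFF2 and TFF3 had no called difference to match.

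**Figure D5:**
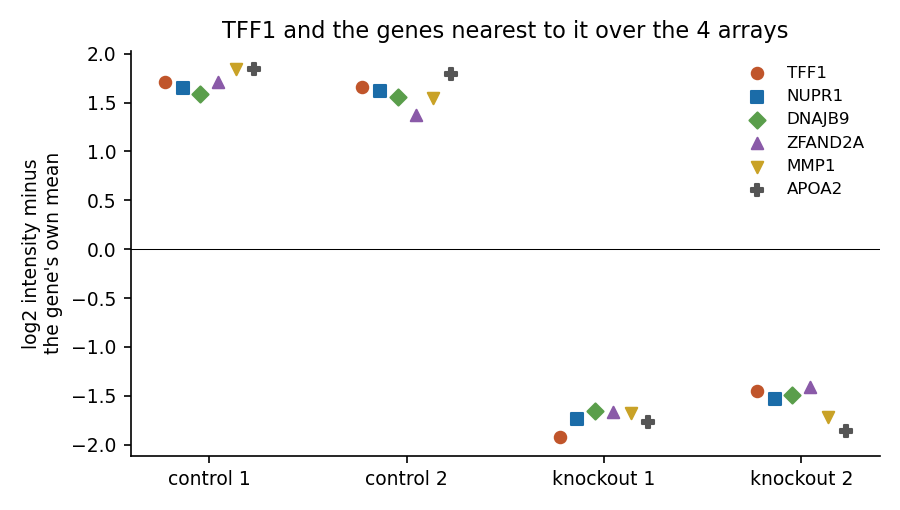
Log2 intensity minus the gene's own mean over the 4 arrays (vertical axis) for TFF1 and the 5 genes nearest to it (symbols), on each array (horizontal axis). All 6 genes lie high on both control arrays and low on both knockout arrays, and NUPR1 lies closest to TFF1, with a root mean square difference of 0.11.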

How the data were processed

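Per the submitters' processing notes, the arrays were processed with RMA and the affy package (versions not given in the sources used here). The authors deposited 1 table of log2 intensities for 54613 probe sets on 4 arrays. RMA corrects background, quantile-normalizes and summarizes probes, so differences are relative to other transcripts. Values between 1.64 and 14.16 show the log scale. Having 4 arrays limits the precision.

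Probe set names came from the platform annotation, with symbols updated to RefSeq (GRCh38.p14): 41091 had 1 symbol, 1801 several and 11721 none. The brightest probe set with 1 symbol stood for each of 19775 genes. The group difference was fitted by limma 3.58.1 under R 4.3.3 (lmFit, eBayes, no covariates, 2 residual and 3.27 prior degrees of freedom), with Benjamini-Hochberg adjustment over all genes and a threshold of 0.05. The script was tested on simulated data.

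The members and the gene lists were chosen with earlier results of these data known. Named were the trefoil genes, PRMT6, 12 genes set as background, in each list up to 4 called genes of largest change (or 2 where none was called), the nearest and called neighbours, and the 5 genes most like TFF1. CAPS, GATA4, SOX2, USF1, STAT3, HSPA5, P4HB, ERN2, AGR3, CREB3L4, KRT8, CLDN4, NRIP1, IGFBP4, KRT13, MYB, FAP, SPINK4, FABP1, CDH17, EPCAM, KRT18 and LYZ were named after their values were seen. RefSeq promoter entries matched 0 of the 3 genes.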

Additional observations from a re-analysis of the deposited data

How the results depend on the processing

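TFF1 kept its call and direction under all 12 alternatives (the mean of probe sets, gene-specific probe sets, all probe sets in 1 fit, brighter genes only, reference gene scaling, an intensity trend, a robust prior, the replicate block and each array left out). TFF2 and TFF3, absent from the brighter genes, stayed uncalled in all of theirs except TFF2 under reference gene scaling (-0.35), where TMPRSS3 also reversed to -0.24. Leaving out single arrays gave TFF2 between -0.11 and 0.00 and TFF3 between -0.07 and 0.22. With 1 array left in a group, that array is assumed to vary like the other group. Genes called higher numbered 1613 with gene-specific probe sets and 1112 under reference gene scaling, against 2459 as reported, and 154 to 1371 with an array left out. The fit of all probe sets called 3485 probe sets lower, and reference gene scaling called 9647 genes lower, against 2281 genes as reported, and 354 to 1258 with an array left out. Same-numbered arrays did not deviate together (r = 0.05 across genes), so the numbers do not show pairing. With the replicate block 2035 genes rose and 1937 fell, and TFF1 was -3.37 (limma adjusted p = 0.0017). Without detection calls, background limits what TFF2 and TFF3 can show.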
